A study of Mus musculus with 48 samples.

Results

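White adipose tissue (WAT) was taken from young and from old mice put on dietary restriction for a short time. The difference between the 2 responses was measured gene by gene. The quantity is an interaction: the change with restriction at 26 months minus the change with restriction at 5 months, both on the log2 scale. A negative interaction means that the gene rose less, or fell more, in the old mice, and a positive one that it fell less, or rose more. It was estimated from the 14 libraries of 4 groups, chosen by their labels, out of 22 WAT libraries and 48 libraries in the series. The study's title names its question, whether an earlier diet impairs what restriction does in old mice.

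All animals were female C3B6F1 mice, an F1 hybrid of inbred strains, housed in groups and given one commercial chow. The fed groups (AL) ate freely, with 3 libraries at 5 months and 3 at 26 months. The group ALDR at 5 months had 3 libraries from mice moved from free feeding to 60% of the AL intake at 12 weeks of age, so that they had been restricted for 2 months. The group ALDR at 26 months had 5 libraries from mice fed freely until 24 months and restricted in the same way afterwards. Age labels of 26 months are kept for the old groups, although their protocol puts death at 27 months. Restriction from 24 months thus lasted until 26 months by the labels or 27 months by the protocol. Its length may therefore have differed from the 2 months in young mice, and its part cannot be told apart from age. Tissue was taken within the 3 hours that preceded the daily meal of restricted animals. The protocol calls the fat epididymal although the mice were female, so the depot is uncertain. The other WAT groups share the fit, and so its scaling, filter and estimate of spread, but are not in the contrast: DR (restricted from 12 weeks, 3 libraries at 26 months) and DRAL (restricted from 12 weeks, fed freely again from 24 months, 5 libraries at 26 months).

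White fat stores triglyceride in adipocytes, releases fatty acids when food is short, and secretes hormones such as leptin and adiponectin. Under dietary restriction, adipocytes of young rodents are known to shrink and to switch each day between making fat from glucose after the meal and burning it later, with more mitochondrial gene expression. Macrophages, T cells and dividing cells in the fat of freely fed, obese animals are known to become fewer. In bulk RNA, fewer cells of a type and less RNA per cell cannot be told apart, and this holds for every immune and cell division gene below.

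Total counts in the 14 libraries ran from 12247161 to 19062509, and 15828 genes were tested. Libraries of a group came from different mice by the study's account of biological replicates. The adipocyte genes Adipoq and Plin1 were high in all of them, from 35727 and 23550 counts upwards. The summed level of 8 adipocyte genes was 23380 to 33620 CPM in AL and 40740 to 45180 in ALDR at 5 months, and 19780 to 21060 in AL and 24030 to 32370 in ALDR at 26 months. It was thus higher under restriction without overlap at both ages, and its part in the lists that rose or fell was not tested. The summed level of 10 liver genes was 1880 CPM (counts scaled to a common library size) in AL replicate 2 at 5 months, 2067 in AL replicate 3 at 26 months and 2762 in ALDR replicate 2 at 26 months. It was between 18.3 and 147 in the other libraries of the AL, ALDR and DR groups. The summed level of 14 skeletal muscle genes was 1129 CPM in AL replicate 1, 4095 in ALDR replicate 2 and 1355 in ALDR replicate 5 at 26 months, and at most 76.3 in any library at 5 months. Both sets of libraries were left out in turn, as alternatives added after the data were seen. At 5 months, mammary epithelium genes summed to 168.6 to 179 CPM in AL and 112 to 152.7 in ALDR. Schwann cell and nerve genes summed to 177.1 to 191.5 CPM in AL and 130.4 to 149.7 in ALDR at that age. The diets overlapped in both sums at 26 months, and their part in the interaction was not tested.

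Of the genes tested, 212 (1.34%) differed in their response between the ages at an edgeR adjusted p under 0.05. The interaction was positive for 106 (0.67%) and negative for 106 (0.67%). Restriction changed 4619 genes at 5 months (29.2% of those tested), of which 2346 (14.8%) rose and 2273 (14.4%) fell. It changed 690 genes at 26 months (4.36%), of which 421 (2.66%) rose and 269 (1.7%) fell. Almost all interaction genes followed one pattern. Of the 106 with a positive interaction, 105 fell at 5 months, and of the 106 with a negative one, 99 rose at 5 months. The median size of the response in the 212 genes was 1.46 at 5 months and 0.25 at 26 months, beside 0.34 and 0.19 over all genes tested (log2). The change was the smaller one at 26 months in 201 genes and the larger one in 11.

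The count of 212 depends on which libraries are fitted. With only the 4 groups in the fit it was 89, of which 70 were among the 212, and the count at 26 months was 377. Without ALDR replicate 2 at 5 months 18 genes were called, without the 3 libraries high in liver genes 23, and without the 3 high in muscle genes 117. The count at 26 months fell to 158 without the libraries high in liver genes and to 16 without those high in muscle genes. These fits also held fewer libraries, and all 690 genes kept their sign in both. With all libraries kept and muscle and liver marker levels as covariates, 708 genes were called, 619 of them among the 690. The counts at 26 months given for gene lists thus depend on the fit. The parts of lost libraries and of marker signal were not tested. In the fit without the libraries high in muscle genes, the circadian clock list kept 5 calls at 26 months and the lysosome list 1, and no other list had more than 0. Over all 24 alternatives that were run with these 4 groups, 12 of the 212 genes were called every time. They were C2cd2l, Phyhd1, Gucd1, Ofcc1, Arsb, Xkrx, Aldh2, Pth1r, Bcat1 and Ubd, plus 2 transcripts with provisional names. Phyhd1 is named here after its values were seen. At the other end, 99 of the 212 were called in 12 or fewer of the 24, among them Acadsb in 6, Pdk2 and Adam19 in 7, Npr3 in 8, Egln3 in 9, Nampt and Il1rn in 10, and Lep and Mogat1 in 12.

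**Figure D1:**
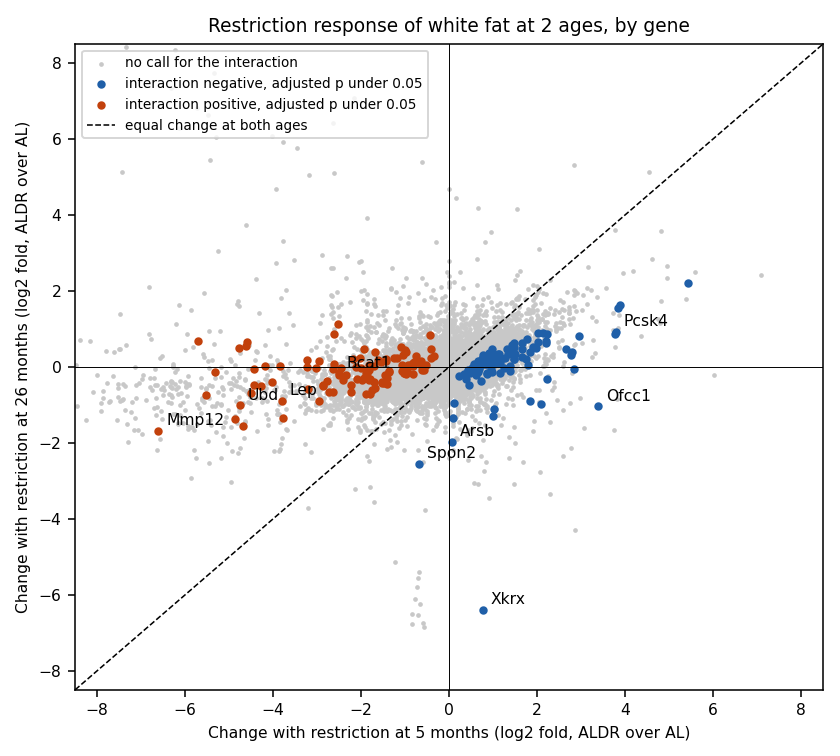
Each point is a gene, with its change under restriction at 5 months on the x axis and at 26 months on the y axis (log2 fold, ALDR over AL). The 212 genes with an interaction are coloured (blue negative, orange positive) and all others grey; 17 grey genes lie beyond the axis limits of 8.5. The coloured points lie along the x axis, away from the dashed line of equal change, except a few such as Arsb, Xkrx and Spon2, which lie low on the y axis.

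The interaction is also the age difference in restricted mice minus that in fed mice. Between the ages, 5269 genes (33.3%) differed in the restricted mice (ALDR at 26 months against ALDR at 5 months) and 18 (0.114%) in the fed mice. Extraction and sequencing batches are not given in the sources used here, so age and any such batch cannot be told apart in these 2 comparisons. Of the 212 interaction genes, 207 differed between the ages in restricted mice and 0 in fed mice, which describes the values that chose them. The count in fed mice was unstable, at 1707 genes without the libraries high in liver genes, 1287 without AL replicate 2 at 5 months and 799 with DESeq2, of which 12, 11 and 20 were among the 212. The lifelong restricted group (DR, 26 months), which is in the fit but not in the contrast, gives another restricted level. Its mean was nearer to the young than to the late restricted group in 153 of the 212 genes (72.2%), beside 47.3% of all genes tested. Its libraries did not overlap those of the late restricted group in 158 of the 212 (74.5%), beside 18.4% of all genes. The late restricted libraries also entered the choice of the 212, so these shares are a description. The DR libraries carried 453 to 18220 CPM of skeletal muscle genes, and the part of this in the comparison was not tested.

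C2cd2l, which encodes a protein carrying phosphoinositide lipids between the endoplasmic reticulum and the plasma membrane, shows the common pattern most cleanly (chromosome 9, 44309237 to 44320285 in GRCm38, minus strand, protein coding). Its level was 29.8, 29.4 and 29.5 CPM in the AL libraries and 113, 80.3 and 84.9 in the ALDR libraries at 5 months. At 26 months it was 23.9, 28.3 and 25.3 in AL and 31.7, 32.1, 30.5, 28.1 and 31.8 in ALDR. The young restricted libraries stood far above all others of the 4 groups, and the old restricted ones overlapped old fed ones. The change was 1.65 ± 0.13 (log2, SE) at 5 months and 0.25 ± 0.12 at 26 months, with an interaction of -1.39 ± 0.17 and an edgeR adjusted p of 0.001264. In lifelong restricted mice the level was 76.1, 85.7 and 87.8 CPM.

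Aldh2, the mitochondrial enzyme that oxidises acetaldehyde and other aldehydes, behaved alike (chromosome 5, 121566027 to 121593824, minus strand). Its level was 314.5, 395.4 and 386.7 CPM in AL and 719.3, 970.6 and 747.1 in ALDR at 5 months, against 371.3, 385.3 and 446.3 in AL and 386.5, 342.1, 330.1, 314.2 and 403.8 in ALDR at 26 months. The groups were apart at 5 months and overlapped at 26 months. The interaction was -1.33 ± 0.20 (edgeR adjusted p = 0.004394). Pth1r, the receptor for parathyroid hormone (chromosome 9, 110722085 to 110747145, minus strand), was at 26.8, 26.1 and 28.1 CPM in AL and 100, 96.8 and 108.6 in ALDR at 5 months, and at 22.6, 20.7 and 15.6 in AL and 32.6, 27.1, 27.8, 22 and 32.7 in ALDR at 26 months. Its interaction was -1.39 ± 0.23 (edgeR adjusted p = 0.009156). Lifelong restricted libraries held 68 to 87.1 CPM of Pth1r, between the young and the old ALDR libraries.

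Bcat1, the cytosolic enzyme that takes the amino group off branched-chain amino acids, showed the reverse direction (chromosome 6, 144993835 to 145076184, minus strand). It was at 7.51, 7.8 and 8 CPM in AL and 1.36, 1.33 and 1.4 in ALDR at 5 months. At 26 months it was at 9.31, 6.7 and 14.3 in AL and 7.56, 12.8, 6.23, 9.85 and 8.34 in ALDR. The fall at 5 months was -2.51 ± 0.31 and the estimate at 26 months -0.17 ± 0.24, with an interaction of 2.33 ± 0.39 (edgeR adjusted p = 0.01167). Ubd, a ubiquitin-like protein induced by inflammatory cytokines (chromosome 17, 37193892 to 37196095, plus strand), was at 81.7, 100.6 and 94.6 CPM in AL and 2.89, 4.05 and 3.24 in ALDR at 5 months. At 26 months it was at 35.9, 27 and 57.5 in AL and 15.1, 13.6, 23, 28.2 and 19.3 in ALDR, with a change of -1.02 ± 0.38 that did not pass (edgeR adjusted p = 0.1371). The interaction was 3.74 ± 0.64 (edgeR adjusted p = 0.01346). All old fed libraries held less Ubd than any young fed one, and the age difference in fed mice did not pass the test.

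**Figure D2:**
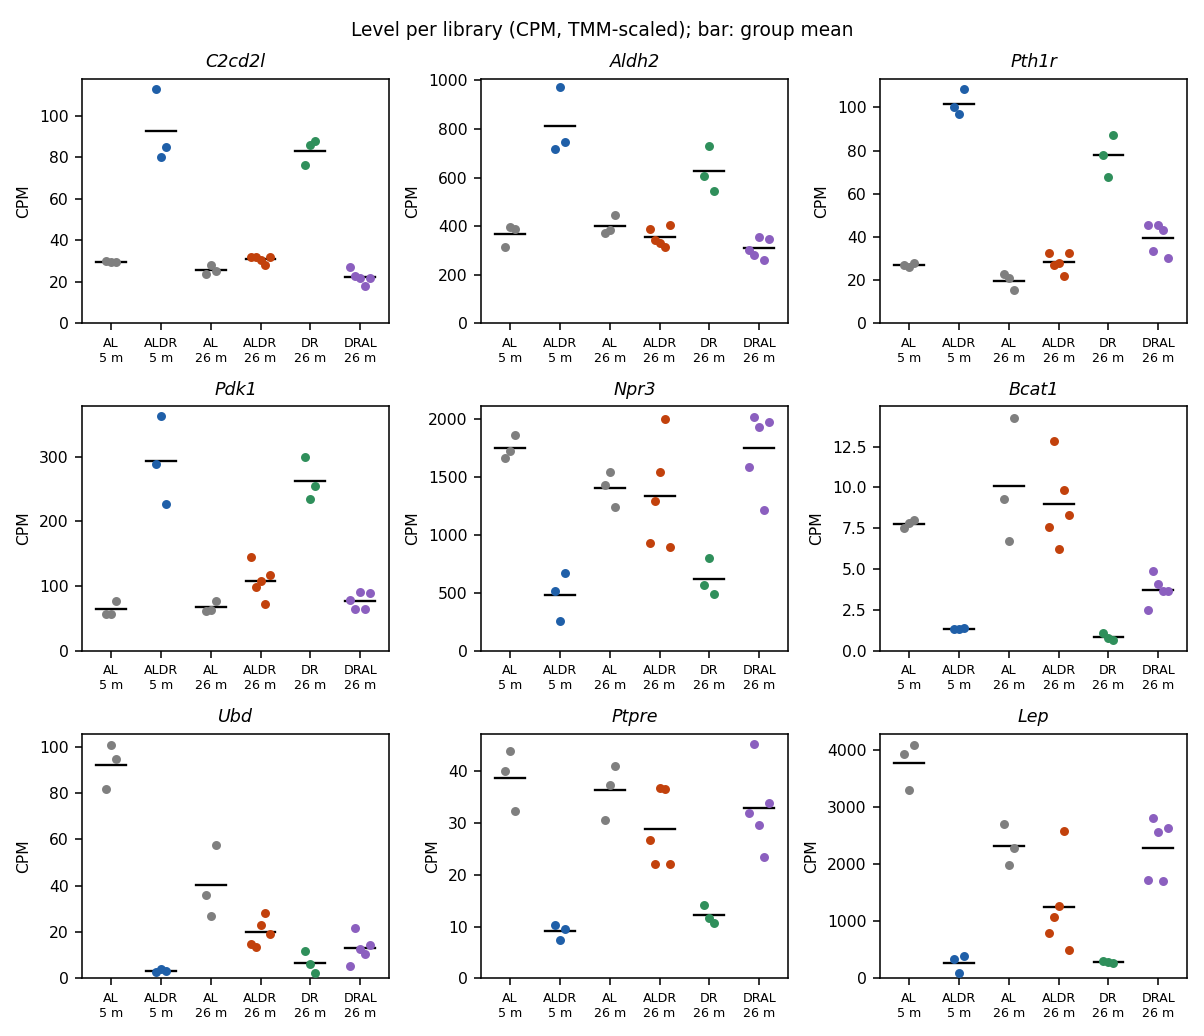
Level of 9 interaction genes in each library (y axis, CPM on TMM-scaled totals, from 0), in the 4 groups of the comparison and in the DR and DRAL groups beside them; black bars are group means. For C2cd2l, Aldh2, Pth1r and Pdk1 the young restricted and the lifelong restricted libraries lie high and the late restricted ones lie lower; for Bcat1 and Lep the young and lifelong restricted ones lie low.

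Most other genes that the naming rule took by smallest p changed more at 5 months, while Mbnl3, Arsb and Xkrx, described last, changed more at 26 months. Among those with a negative interaction, Slc5a6, which carries the vitamins biotin and pantothenate into cells, rose by 2.14 ± 0.17 at 5 months and by 0.89 ± 0.15 at 26 months, past the test at both ages. Oscp1 also rose at both ages, by 2.22 and 0.87. St3gal6, an enzyme that adds sialic acid to glycans, rose by 2.95 at 5 months and had an estimate of 0.81 at 26 months. Pcsk4, a proprotein convertase, rose by 3.79 at 5 months with an estimate of 0.91 at 26 months. Orm3, an orosomucoid, rose by 1.83 at 5 months, while its 26-month estimate was -0.91. Among those with a positive interaction, Ptpre, a receptor-type tyrosine phosphatase, fell by 2.09 ± 0.24 at 5 months and had an estimate of -0.33 ± 0.20 at 26 months. Metrn, a secreted protein, fell by 1.82 at 5 months with -0.09 at 26 months. Il13ra2, the decoy receptor for interleukin 13, fell by 4.50 at 5 months with -0.69 at 26 months. Trp53cor1, a long noncoding RNA of the p53 pathway, fell by 3.23 at 5 months with 0.00 at 26 months. Sept9, a septin, fell at both ages, by 1.76 and 0.62.

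Of 28 genes for pyruvate entry and the citric acid cycle, 23 rose at 5 months and 2 at 26 months. The list medians were 0.79 and 0.29 (over all genes, -0.01 and 0.01). The number called at 26 months ran from 0 to 7 with 1 library left out and was 8 with DESeq2. For 27 of the 28 the interaction estimate was negative, beside 7728 of all 15828 genes tested, and 3 of the list passed the test. These were Pdk1 and Pdk2, kinases that switch off pyruvate dehydrogenase, and Pdha1, a subunit of pyruvate dehydrogenase itself. Pdk1 was at 57.5, 57.3 and 77.5 CPM in AL and 289.1, 362.1 and 226.3 in ALDR at 5 months, and at 61, 62.8 and 77.4 in AL and 145.5, 98.2, 107.2, 72 and 117.5 in ALDR at 26 months. The old restricted libraries lay at or above the old fed ones with 1 overlapping, and far under the young restricted ones. The Pdk1 interaction was -1.50 ± 0.29 (edgeR adjusted p = 0.02012), that of Pdha1 -1.04 ± 0.23 (0.03303) and that of Pdk2 -1.36 ± 0.33 (0.04987). Pdha1 was the one of these that also rose at 26 months, by 0.72 ± 0.16 (edgeR adjusted p = 0.01491).

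Of 34 subunits of the respiratory chain and ATP synthase encoded in the nucleus, 28 rose at 5 months and 2 at 26 months, Ndufv1 of complex I and Atp5b of the ATP synthase. The medians were 0.68 and 0.33, and 31 interaction estimates were negative, yet no member passed the interaction test of edgeR or DESeq2. With 1 library left out, edgeR called up to 2 in the interaction and 0 to 4 at 26 months. DESeq2 called 6 at 26 months. The member with the smallest p was Ndufs7, a complex I subunit, at -0.58 ± 0.19 (edgeR adjusted p = 0.1141). All 13 genes encoded in mitochondrial DNA rose at 5 months and 0 at 26 months, with medians of 1.82 and 0.52. All 13 interaction estimates were negative, and none passed. mt-Nd3 had the smallest p of them (-1.21, edgeR adjusted p = 0.1393). Mitochondrial genes took 2.32%, 1.98% and 1.3% of all counts in the young restricted libraries, 0.33% to 0.885% in the young fed ones, 0.437% to 0.727% in the old fed ones and 0.629% to 0.993% in the old restricted ones. The young restricted libraries were thus above all others of the 4 groups, and the old groups overlapped. Mitochondrial ribosome and genome maintenance genes followed, with 13 of 28 that rose at 5 months and 0 at 26 months.

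Of 22 genes that break down branched-chain amino acids, 14 rose and Bcat1 fell at 5 months, while 3 rose at 26 months. Acadsb, an acyl-CoA dehydrogenase of isoleucine breakdown, was called with an interaction of -0.54 ± 0.13 (edgeR adjusted p = 0.04655). Fatty acid oxidation had 13 of 28 members that rose at 5 months and 2 at 26 months, and no interaction call. Peroxisome assembly had 12 of 17 that rose at 5 months, and 5 that rose and 1 that fell at 26 months. It had no interaction call by edgeR. The smallest p was that of Pex3 (-0.64, edgeR adjusted p = 0.05524), which DESeq2 called (DESeq2 adjusted p = 0.01225). In glycolysis, Gpi1, the isomerase of glucose 6-phosphate, rose by 1.00 at 5 months with 0.23 at 26 months (interaction -0.78 ± 0.15, edgeR adjusted p = 0.02012), and of 22 list members 8 rose and 3 fell at 5 months, and 1 rose and 1 fell at 26 months. Gk, glycerol kinase, fell by 1.48 at 5 months and had -0.41 at 26 months (interaction 1.06 ± 0.24, edgeR adjusted p = 0.03303). Egln3, an oxygen-sensing prolyl hydroxylase, rose by 1.83 at 5 months with 0.39 at 26 months.

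Of 20 genes of fatty acid synthesis, 12 rose and 2 fell at 5 months and 3 rose at 26 months (Acaca, Elovl6 and Me1), with medians of 1.17 and 0.73. The interaction estimate was negative for 16 of the 20, and 1 passed the test. Fasn, fatty acid synthase, was at 3332, 2675 and 5888 CPM in AL and 27860, 28710 and 21860 in ALDR at 5 months. At 26 months it was at 2137, 1789 and 3461 in AL and 10150, 6256, 6688, 4184 and 5410 in ALDR, so that the diets did not overlap at either age. Fasn rose by 2.72 at 5 months, and its 26-month estimate of 1.41 had an edgeR adjusted p of 0.0547. Its interaction was -1.31 with an edgeR adjusted p of 0.2322. Acaca, which makes malonyl-CoA, rose at both ages, by 3.35 and 1.85, with an interaction of -1.50 (0.1416). Elovl6, which lengthens palmitate, rose by 3.57 and 2.08, with an interaction of -1.49 (0.2899). Acly, which makes cytosolic acetyl-CoA, passed at neither age (1.19 and 0.75).

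Fads1, the delta-5 fatty acid desaturase, was the only member of that list called in the interaction. It was at 46.9, 59 and 42.1 CPM in AL and 115.8, 111.6 and 103.9 in ALDR at 5 months, and at 53, 56.6 and 82.2 in AL and 72.8, 83.1, 62.1, 55.2 and 68.8 in ALDR at 26 months. The groups overlapped at 26 months, and the interaction was -1.06 ± 0.24 (edgeR adjusted p = 0.03567). Triglyceride synthesis and storage had 12 of 28 members that rose at 5 months and 8 at 26 months. Agpat1 and Mogat1, acyltransferases that build glycerolipids, rose at 5 months by 0.62 and 1.75, and the 26-month estimate of Mogat1 was 0.21 and that of Agpat1 was near 0. Their interactions were -0.63 ± 0.14 and -1.54 ± 0.35 (edgeR adjusted p = 0.03303 and 0.03618).

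**Figure D3:**
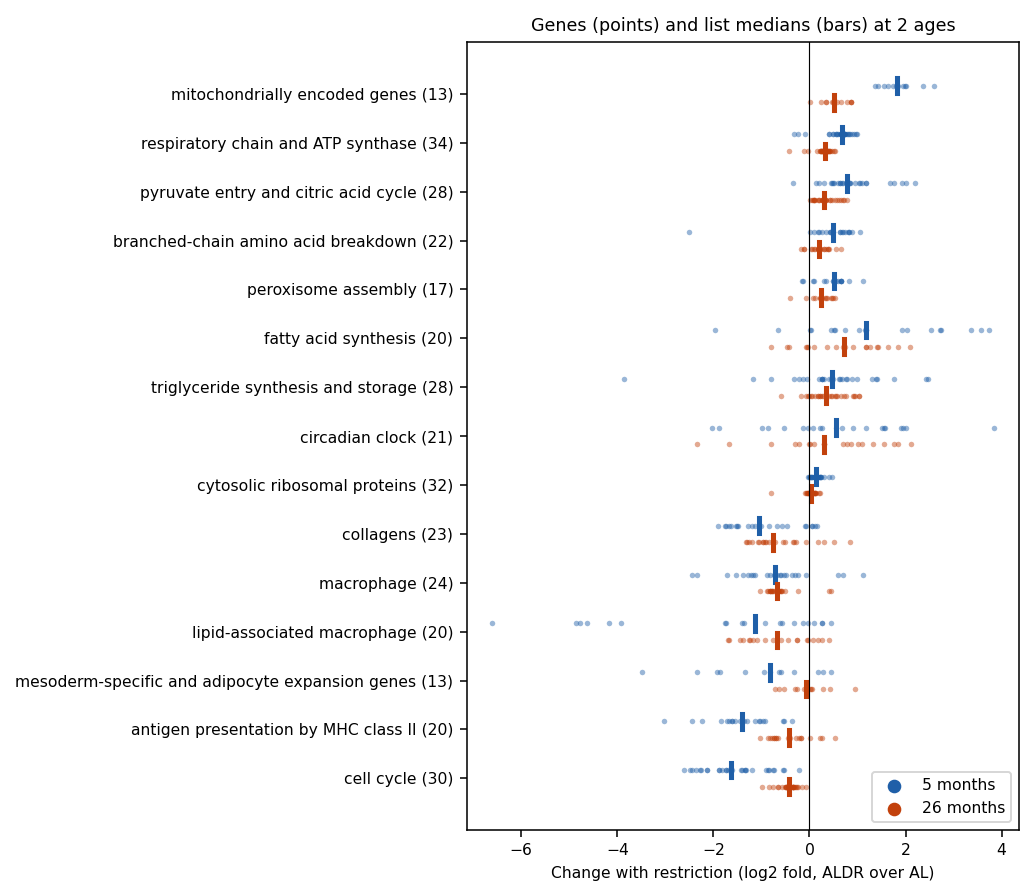
Change with restriction (x axis, log2 fold, ALDR over AL) of the genes of 15 lists at 5 months (blue) and 26 months (orange); points are genes, bars are list medians, and the number of genes tested is in parentheses. The medians of the mitochondrially encoded, antigen presentation and cell cycle lists lie much closer to 0 at 26 months, that of macrophage genes lies at nearly the same place at both ages, and ribosomal proteins lie near 0 at both.

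Adipocyte hormones had no common direction. Of 21 adipokine genes, 7 rose and 5 fell at 5 months and 3 rose at 26 months, and the interaction estimate was negative for 10 and positive for 11, with 3 calls. Lep encodes leptin, the hormone that reports fat stores. Its level was 3925, 3295 and 4076 CPM in AL and 331.4, 90.6 and 390.3 in ALDR at 5 months. At 26 months it was 2700, 1978 and 2290 in AL and 789.8, 1075, 1273, 2578 and 494.2 in ALDR. Of the 5 old restricted libraries 4 were under every fed one, and replicate 4 lay among them. Lep fell by 3.80 ± 0.52 at 5 months, with -0.90 ± 0.41 at 26 months (edgeR adjusted p = 0.2231) and an interaction of 2.90 ± 0.65 (0.03303). Rarres2, the precursor of the adipokine chemerin, fell by 1.52 with -0.43 at 26 months (interaction 1.10 ± 0.22, edgeR adjusted p = 0.02403). Nampt, the enzyme of NAD salvage that is also secreted, rose by 1.31 with 0.46 at 26 months (interaction -0.86 ± 0.21, edgeR adjusted p = 0.04421). Adipoq, adiponectin, passed at neither age (0.12 and 0.28), and its interaction was 0.16 (edgeR adjusted p = 0.6749).

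Npr3, the receptor that clears natriuretic peptides, is a member of the lists of lipolysis and of fat expansion. It was at 1662, 1725 and 1859 CPM in AL and 513.8, 253.4 and 672.3 in ALDR at 5 months, and at 1426, 1538 and 1239 in AL and 930.5, 1289, 1538, 1998 and 897.7 in ALDR at 26 months. It fell by 1.87 at 5 months with -0.07 at 26 months (interaction 1.79 ± 0.42, edgeR adjusted p = 0.04104). Of the 13 fat expansion genes 9 fell at 5 months and 0 at 26 months, with medians of -0.82 and -0.07. Mest and Sfrp5, genes known to mark expanding adipocytes and named after their values were seen, fell by 2.35 and 3.48 at 5 months with 0.01 and -0.64 at 26 months, and their interactions of 2.35 and 2.84 did not pass.

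Most cell division genes fell at 5 months, and by edgeR none was called at 26 months or in the interaction. DESeq2 called 0 at 26 months and 1 in the interaction. With 1 library left out, edgeR called up to 1 at 26 months. Of 30 cell cycle genes, 26 fell at 5 months and 0 at 26 months, with medians of -1.63 and -0.42. The interaction estimate was positive for 29 of them (median 1.06, beside 0.01 over all genes), and the smallest p was that of the mitotic kinase Ttk (2.02, edgeR adjusted p = 0.1017). Mki67, the proliferation marker, was at 43.8, 25.4 and 47.2 CPM in AL and 10.5, 8.94 and 7.29 in ALDR at 5 months, and at 28.3, 73.7 and 48 in AL and 32.7, 21.9, 36.5, 48.9 and 42.4 in ALDR at 26 months. Top2a, topoisomerase 2 alpha, was at 43.5, 26.5 and 42.9 CPM in AL and 5.45, 7.55 and 10 in ALDR at 5 months, and at 28.7, 48.6 and 46.4 in AL and 27.3, 18.5, 31.2, 33.1 and 37.7 in ALDR at 26 months. Both are named after their values were seen. The diets were apart at 5 months and overlapped at 26 months for both. Cdkn1c, an inhibitor of cyclin-dependent kinases, went the other way, up by 1.48 at 5 months with 0.19 at 26 months (interaction -1.29 ± 0.24, edgeR adjusted p = 0.01918).

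Promoters of cell division genes often hold the cell cycle genes homology region, TTTGAA, at which a repressor complex is known to sit in resting cells. Upstream windows of 250 bases were read from RefSeq (GRCm38.p6), 1 start per gene, and searched on both strands. The motif stood in 7 of the 26 cell cycle genes with a window (26.9%), in 11% of the windows of genes tested and in 16.3% of all windows in the table. Of these 7 genes, 3 that fell together at 5 months were picked for display, Cdc20 and Cdk1 from outside the naming rule. Their nearest 120 bases upstream are printed 5′ to 3′ on the gene's strand, with the motif or its reverse complement TTCAAA in capitals. They lie on the minus strand, at chr4:118437344-118437463 for Cdc20, chr10:69352913-69353032 for Cdk1 and chr11:99024190-99024309 for Top2a.
Cdc20: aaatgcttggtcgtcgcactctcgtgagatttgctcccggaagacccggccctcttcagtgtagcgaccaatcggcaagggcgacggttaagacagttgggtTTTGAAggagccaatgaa
Cdk1: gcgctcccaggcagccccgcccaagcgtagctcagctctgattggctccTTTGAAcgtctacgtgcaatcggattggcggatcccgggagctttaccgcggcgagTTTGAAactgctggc
Top2a: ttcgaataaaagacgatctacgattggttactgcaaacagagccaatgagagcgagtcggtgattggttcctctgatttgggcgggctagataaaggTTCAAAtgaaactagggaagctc
The motif starts 18 bases before the gene's start in Cdc20, 71 and 15 in Cdk1 and 23 in Top2a. Cdc20, a mitotic activator, fell by 1.41 at 5 months with -0.41 at 26 months, and Cdk1, the mitotic kinase, by 1.34 with -0.26. These matches describe the letters in the windows.

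Immune gene lists differed in their medians, and no test between lists was made. Interferon-stimulated genes had 4 of 31 that fell at 5 months and 1 at 26 months, with medians of -0.07 and -0.32. Over all genes tested, 14.4% fell and 14.8% rose at 5 months, and 1.7% fell at 26 months. Mast cell, neutrophil and eosinophil genes had 2 of 14 that rose and 2 that fell at 5 months and 0 calls at 26 months, with medians of 0.01 and -0.45. Of 20 genes of antigen presentation by MHC class II, 13 fell at 5 months and 0 at 26 months by edgeR. DESeq2 called 14 at 5 months and 6 at 26 months. The medians were -1.41 and -0.43, with 19 positive interaction estimates. H2-DMb1, a chain of the molecule that loads peptides onto class II, was at 74.2, 79.1 and 64.9 CPM in AL and 16.9, 14.7 and 14.6 in ALDR at 5 months, and at 47.1, 51.1 and 62.2 in AL and 30.4, 23.6, 40.1, 40.5 and 35.5 in ALDR at 26 months. The diets did not overlap at either age, and the gap was narrower in old mice. Its interaction was 1.59 ± 0.32 (edgeR adjusted p = 0.02311). T and NK cell genes had 6 of 22 that fell at 5 months and 0 at 26 months, with medians of -1.01 and -0.12. Their interaction estimate was positive for 21 of 22 (median 0.97). None passed the edgeR test, up to 1 did with 1 library left out, and DESeq2 called 2.

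Lipid-associated macrophages are those that take up lipid around dying adipocytes. Their genes fell in 12 of 20 cases at 5 months and in 0 at 26 months by edgeR (medians -1.14 and -0.68). At 26 months DESeq2 called 4, and edgeR called up to 4 with 1 library left out. Mmp12, the macrophage elastase, was at 375.8, 272.5 and 119.1 CPM in AL and 2.64, 3.7 and 1.47 in ALDR at 5 months. At 26 months it was at 178.4, 180.4 and 442.3 in AL and 50.1, 66, 133.4, 88.2 and 75.3 in ALDR. The diets did not overlap at either age. The change was -6.61 ± 0.89 at 5 months and -1.69 ± 0.58 at 26 months (edgeR adjusted p = 0.1028), with an interaction of 4.92 ± 1.03 (0.02896). Il1rn, the antagonist of the interleukin 1 receptor, fell at 5 months and was called in the interaction (edgeR adjusted p = 0.03303). Its young restricted libraries held 8 counts in all and at most 3 each, so its fitted fold is no bound and is not given here. Ccl2, the chemokine that draws in monocytes, fell at both ages (-4.69 and -1.55) and had an interaction of 3.14 ± 0.66 (edgeR adjusted p = 0.0296). General macrophage genes had 11 of 24 that fell at 5 months and 1 at 26 months by edgeR. Their medians were -0.71 and -0.67, and edgeR called no interaction. DESeq2 called 4 at 26 months and 2 in the interaction. Lyve1, a marker of resident macrophages and lymphatic vessels, rose by 1.11 at 5 months with -0.57 at 26 months, and its interaction of -1.67 did not pass (edgeR adjusted p = 0.1082).

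Of 23 collagen genes, 15 fell at 5 months and 10 at 26 months, with medians of -1.05 and -0.76. Leaving out the libraries high in liver genes left 1 call at 26 months and leaving out those high in muscle genes left 0. The interaction estimate was positive for 16 of the 23 (median 0.52), and 1 passed the test, that of the short-chain collagen Col8a1. It was at 18.3, 14.8 and 21.6 CPM in AL and 10.3, 8.46 and 7.73 in ALDR at 5 months, and at 14.9, 14.3 and 14.8 in AL and 17.2, 15.7, 14.5, 21.6 and 21.7 in ALDR at 26 months (interaction 1.35 ± 0.28, edgeR adjusted p = 0.02655). Adam19, a membrane metalloprotease, fell by 1.42 with -0.46 at 26 months (interaction 0.96 ± 0.23, edgeR adjusted p = 0.04555). Ccn5, a matricellular protein of the Wnt pathway, rose by 2.09 at 5 months, and its 26-month estimate was -0.97. It was at 8.24, 15.4 and 12.7 CPM in AL and 65.3, 38 and 51.7 in ALDR at 5 months, and at 31.7, 23 and 15.7 in AL and 9.76, 12.4, 10.1, 17.1 and 10.7 in ALDR at 26 months. Its interaction was -3.06 ± 0.57 (edgeR adjusted p = 0.01685).

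Circadian clock genes changed at both ages. Of 21 genes, 8 rose and 5 fell at 5 months, and 8 rose and 3 fell at 26 months. In the interaction 1 of the 21 passed the test. Arntl, the activator also called Bmal1, was at 31.4, 32.6 and 35.3 CPM in AL and 10.1, 7.41 and 6.85 in ALDR at 5 months, and at 27.7, 33.6 and 28.3 in AL and 7.79, 7.68, 8.38, 9.13 and 13.9 in ALDR at 26 months. The diets were apart at both ages, with changes of -2.03 and -1.67 and an interaction of 0.36 (edgeR adjusted p = 0.4712). Per2 and Dbp, a repressor and an output gene of the clock named after their values were seen, rose by 2.00 and 1.95 at 5 months and by 2.12 and 1.84 at 26 months.

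In protein handling, Dnajb9, a co-chaperone of the endoplasmic reticulum, rose by 1.18 ± 0.14 at 5 months with 0.21 ± 0.12 at 26 months (interaction -0.97 ± 0.18, edgeR adjusted p = 0.01685). Cytosolic ribosomal proteins, 32 genes, had 0 calls at either age and 0 in the interaction. Of 20 heat shock genes 8 rose at 5 months and 1 at 26 months, and 15 interaction estimates were negative. Of 26 proteasome genes 6 rose at 5 months (14.8% over all genes) and 0 at 26 months, and 19 estimates were negative. Over all genes tested, 7728 of 15828 interaction estimates were negative. The ribosomal protein, heat shock and proteasome lists, autophagy (24 genes) and ribosome biogenesis (26) had 0 interaction calls by edgeR. DESeq2 called 1 heat shock, 1 proteasome, 1 autophagy and 2 ribosome biogenesis genes, and 0 ribosomal proteins. The 1.34% called over all genes leaves little room for a call in lists of this size. At an unadjusted p under 0.05, 2879 genes passed for the interaction over all genes, and DESeq2 called 717.

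In 11 of the 212 genes the larger change was at 26 months. Arsb encodes the lysosomal enzyme arylsulfatase B, which degrades glycosaminoglycans (chromosome 13, 93771630 to 93943016, plus strand). It was at 56, 46.3 and 68 CPM in AL and 45.4, 45.3 and 87.6 in ALDR at 5 months, and at 76.4, 130.4 and 106.3 in AL and 26.1, 26.8, 28.9, 27.1 and 23.6 in ALDR at 26 months. The interaction was -2.04 ± 0.30 (edgeR adjusted p = 0.003437). In the lifelong restricted libraries Arsb was at 134.8, 108.9 and 92.1 CPM, and in the refed DRAL libraries at 32.7, 32.2, 32.3, 30.3 and 27. Xkrx, a membrane protein of the XK family (chromosome X, 134149043 to 134162076, minus strand), was at 26.1, 46.3 and 37.4 CPM in AL and between 0.15 and 0.91 in ALDR at 26 months. In DR it was between 39.4 and 66 CPM and in DRAL between 0.27 and 0.99. At 5 months it varied from 0.85 to 21.9 in AL and from 7.55 to 34.6 in ALDR, with no order by diet.

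Both genes were thus low in the 2 groups whose diet was switched at 24 months, in whichever direction, and not low in the 2 old groups that kept their diet. Arsb, Xkrx and Pfdn2, a prefoldin subunit, were the 3 interaction genes for which every library of ALDR and DRAL lay under every library of AL and DR at 26 months. Over all genes tested 23 did so, and 14 lay the other way round. A change of diet late in life and any difference in handling between switched and unswitched groups cannot be told apart here. With DRAL in place of AL as the fed reference at 26 months, the Arsb interaction was -0.29 (edgeR adjusted p = 0.5183) and that of Xkrx -1.18 (0.4988), so neither call held.

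**Figure D4:**
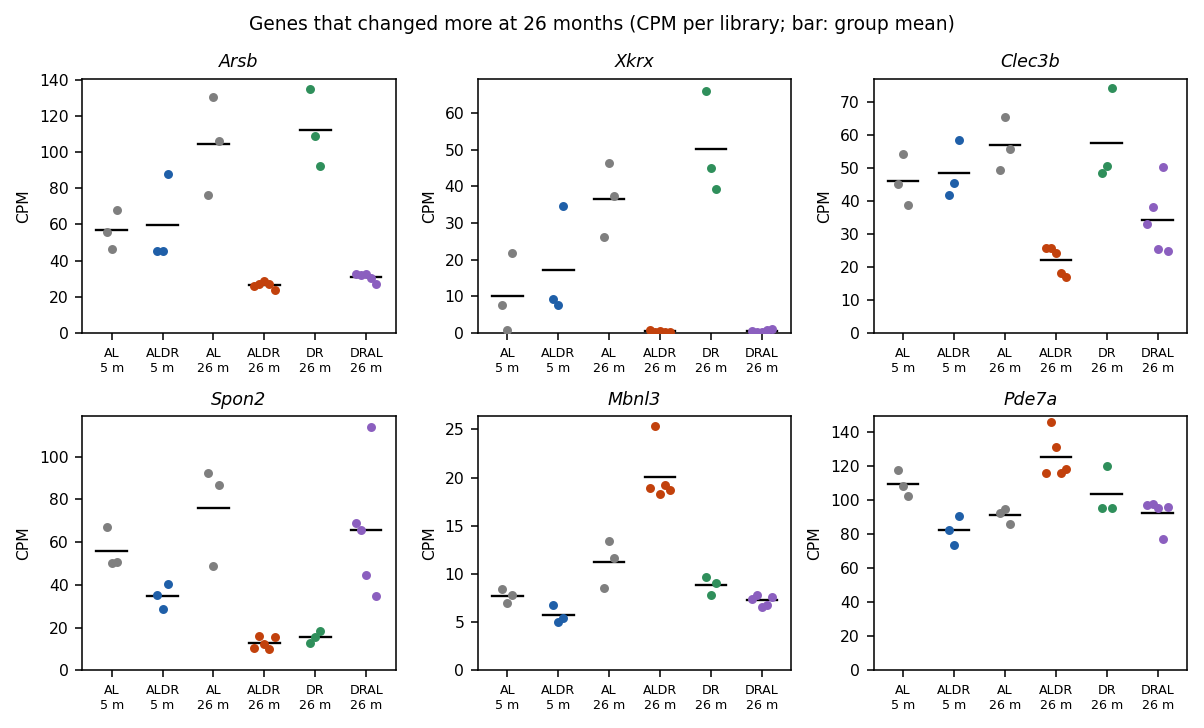
Level in each library (y axis, CPM, from 0) of 6 genes whose change was larger at 26 months than at 5 months, in 6 groups; black bars are group means. Arsb and Xkrx are low in ALDR and DRAL at 26 months, Spon2 is low in ALDR and DR, and Mbnl3 and Pde7a are highest in ALDR at 26 months.

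Zfp503, a zinc finger protein, Clec3b, the plasminogen-binding protein tetranectin, and Tmem115, a membrane protein, also tended to be lower in both switched groups, with overlap. Zfp503 was at 29.5 to 38.6 CPM in ALDR and 25.6 to 39.0 in DRAL, against 40.3 to 51.5 in AL and 35.5 to 54.9 in DR at 26 months. Clec3b was at 16.9 to 25.9 CPM in ALDR and 24.9 to 50.2 in DRAL, against 49.5 to 65.3 in AL and 48.4 to 74.1 in DR. Tmem115 was at 25.8 to 31.7 CPM in ALDR and 26.7 to 31.7 in DRAL, against 32.3 to 34.4 in AL and 29.6 to 32.3 in DR. Other genes differed from this. Mbnl3, a splicing regulator of the muscleblind family (chromosome X, 51117269 to 51206532, minus strand), was at 8.54, 13.5 and 11.7 CPM in AL and 18.9, 25.4, 18.3, 19.3 and 18.7 in ALDR at 26 months, against 8.45, 7.01 and 7.79 in AL and 6.81, 5.03 and 5.45 in ALDR at 5 months. It rose by 0.84 ± 0.15 at 26 months (edgeR adjusted p = 0.004597), with -0.43 ± 0.17 at 5 months and an interaction of 1.27 ± 0.23 (0.01559). The DR libraries were at 7.84 to 9.74 CPM and the DRAL libraries at 6.56 to 7.87, so the late restricted mice stood above all other old groups. Pde7a, a phosphodiesterase that degrades cyclic AMP, was likewise at 115.9 to 145.9 CPM in ALDR and at 86.2 to 94.8 in AL at 26 months, but 1 DR library reached 120.2. Spon2, a secreted matrix protein, was at 9.85 to 16.2 CPM in ALDR and 12.9 to 18.2 in DR, against 48.8 to 92.2 in AL and 34.9 to 113.7 in DRAL. Pde7a, Spon2, Zfp503, Clec3b and Tmem115 are named after their values were seen.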

How the data were processed

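Per the labels' protocols, stranded paired-end 100 bp libraries were made from RNA depleted of ribosomal RNA. Per the submitters' processing notes, Trim Galore 0.3.7, TopHat2 2.0.14 and DESeq2 were used with build GRCm38; the counting program, annotation and filters are not given in the sources used here. The authors deposited raw counts per gene for 25913 Ensembl identifiers, of which 25012 have a GENCODE M21 symbol. Overlapping or near-identical genes may share reads. The deposited brown fat and liver tables were not used.

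Counts were tested with edgeR 4.0.16 in R 4.3.3: filterByExpr, TMM scaling and 1 quasi-likelihood fit of group means over all 22 WAT libraries, with Benjamini-Hochberg adjustment over all 15828 genes at 0.05. The 57 functional and 11 marker lists are described by counts and medians, with no set test. Calls of lists and genes are those of this edgeR fit unless another fit or tool is named. Of their 1353 genes, 1310 were tested. Library totals give 3 counts a level of 0.144 to 0.255 CPM in the 14 libraries, which covers counting error only. The chi-square per degree of freedom between replicates was at least 14.

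Named genes are the 12 with a positive and 12 with a negative interaction of smallest p (size at least 1, at least 1 CPM in a group, no provisional symbol), up to 4 called members of each list or its member of smallest p, and Fasn, Acaca, Acly, Elovl6, Lep, Adipoq, Arntl and Arsb. A gene that the rule names is not reported here. The comparison, lists and rule were chosen with earlier results of these data known. A simulation of the interaction on 15828 genes had 100 changed at each size. The fit recovered 35% of those changed by 1 and 76% of those changed by 2 (log2), and called 3 unchanged genes. These figures hold for simulated counts only. Some real libraries were high in liver or muscle genes, and the real interaction count ran from 18 to 343 with 1 library left out. The rates of recovery and of false calls in the real data were not tested. Alternatives covered the normalization, filter, tool (DESeq2, limma-voom), samples, covariates, replicate block and each replicate left out. DESeq2 1.42.0 and limma 3.58.1 were used there.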

Additional observations from a re-analysis of the deposited data

Results flagged for a closer look

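In 19 of 100 genes checked, 1 of the 5 ALDR libraries at 26 months lay far from the other 4 by Dixon's test. Its rate of about 1 in 20 is set for normally distributed, independent values. CPM of genes that share 5 libraries are neither, so the 19 are a description. The library was replicate 1 for Pcsk4 at 2.949 CPM, Gata3 at 6.126 CPM, Fbln1 at 93.85 CPM, Elovl3 at 0.9075 CPM, Cdh1 at 13.23 CPM and Elovl6 at 552.9 CPM. The library was replicate 2 for Mbnl3 at 25.35 CPM, Pex3 at 69.63 CPM, Casq1 at 25.41 CPM, Cyp3a11 at 10.86 CPM and Slc4a1 at 1.482 CPM. The library was replicate 4 for Metrn at 23.84 CPM, Rhbdl3 at 19.05 CPM, Hsd11b1 at 120.6 CPM, S100a8 at 11.69 CPM and S100b at 14.45 CPM. The library was replicate 5 for Fbl at 10.61 CPM, Cfd at 6412 CPM and Arntl at 13.94 CPM. Replicate 1 also held the most mammary epithelium signal, and replicate 2 was high in liver and muscle genes; their part in these values was not tested.

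The response differed between the ages for 212 genes by the interaction test of edgeR. Among named genes with a positive interaction (log2) were Bcat1 at 2.33, Ubd at 3.74, Mbnl3 at 1.27, Ptpre at 1.76, Metrn at 1.73, Rhbdl3 at 2.4, Trp53cor1 at 3.23, Il13ra2 at 3.82, Sept9 at 1.14 and Rtn4rl1 at 1.7. Others were Npr3 at 1.79, Gk at 1.06, Rarres2 at 1.1, Lep at 2.9, Mmp12 at 4.92, H2-DMb1 at 1.59, Ccl2 at 3.14, Col8a1 at 1.35 and Adam19 at 0.96. Among named genes with a negative interaction (log2) were C2cd2l at -1.39, Gucd1 at -1.12, Arsb at -2.04, Xkrx at -7.16, Aldh2 at -1.33, Pcsk4 at -2.88, Oscp1 at -1.35, Pth1r at -1.39, St3gal6 at -2.14, Orm3 at -2.74, Slc5a6 at -1.25, Fads1 at -1.06 and Agpat1 at -0.63. Others were Mogat1 at -1.54, Gpi1 at -0.78, Pdk1 at -1.5, Pdha1 at -1.04, Pdk2 at -1.36, Acadsb at -0.54, Nampt at -0.86, Ccn5 at -3.06, Dnajb9 at -0.97, Cdkn1c at -1.29 and Egln3 at -1.44. Fitted interactions were S1pr5 at 5.24, Adh4 at 3.95, Il1rn at 3.48 and Ofcc1 at -4.42, but S1pr5 had 2 and Adh4 3 counts in all young restricted libraries together, Il1rn had 8 there with at most 3 in any, and no old restricted library had more than 3 counts of Ofcc1. These estimates depend on the prior count and are no bounds. Xkrx was also low in ALDR at 26 months, down to 0.152 CPM in replicate 5, where 3 counts are 0.227 CPM. Its fitted size of -7.16 is likewise no bound.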

How the results depend on the processing

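The interaction count of 212 was within 1.5 times under RLE scaling, no filter, a stricter filter and 6 of 14 fits without 1 library. It was 89 with only the 4 groups fitted, 331 with muscle and liver marker sums as covariates, 135 with limma-voom, 717 with DESeq2, 23 without the 3 libraries high in liver genes, 117 without the 3 high in muscle genes and 2484 with DRAL as the fed reference at 26 months. Leaving out 1 library gave 18 (ALDR replicate 2 at 5 months) to 343 (ALDR replicate 5 at 26 months), with under 100 also without AL or ALDR replicate 1 at 5 months and without AL replicates 1 or 3 or ALDR replicate 3 at 26 months. The 690 genes at 26 months became 377 with only the 4 groups, 708 with the covariates and 1215 with DESeq2. They became 158 without the liver-high and 16 without the muscle-high libraries. Without 1 library they ranged from 191 (AL replicate 1) to 1159 (ALDR replicate 4). The 4619 genes at 5 months ranged from 3007 (without ALDR replicate 2) to 4743 without 1 library. The 18 genes between ages in fed mice became 36 with the stricter filter, 11 with only the 4 groups, 30 with the covariates, 34 with limma-voom, 799 with DESeq2, 1707 without the liver-high and 2 without the muscle-high libraries, and 1 (AL replicate 3 at 5 months) to 1287 (AL replicate 2 at 5 months) without 1 library. The 5269 genes between ages in restricted mice stayed within 1.5 times in all 24 alternatives. No interaction call on a named gene turned its sign. Among those not called, Acly went from -0.44 to 0.27 without the liver-high libraries, and Adipoq from 0.16 to -0.24 with DRAL as the reference. The cause of these moves was not tested.

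With the replicate number as a block, 56 genes had an interaction and 134 differed between ages in fed mice. The numbers share no stated animal, litter or day, and the deviations of 18 same-numbered pairs correlated from -0.65 to 0.55, so they were not taken as pairs. With 3 to 5 libraries per group, 35% of simulated interactions of size 1 (log2) were recovered.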
